A study of Drosophila melanogaster with 2 samples.

Results

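Eip93F encodes E93, a DNA-binding protein that is induced by the steroid hormone ecdysone and acts in metamorphosis. Of 3401 reproducible E93 peaks on dm6, 901 (26.5%, Wilson 95% interval 25 to 28) had their summit in an intron close to a gene start. A peak was a member when its summit lay inside an annotated gene, in no annotated exon, more than 500 bp from every annotated transcription start site (TSS) and at most 5000 bp from the nearest TSS of a protein-coding gene. The rule used position alone and no signal value. The peaks came from chromatin immunoprecipitation with sequencing of prepupae of the strain Eip93F-MiMIC-GFP, an insertion line in which an extra eGFP exon within an intron makes Eip93F produce a GFP fusion protein, and per the description an antibody against GFP was used, while the antibody label itself names Eip93F. Whole animals of mixed sex and unknown age were taken, chromatin was sonicated to 200 to 800 bp, and 2 biological replicates of this 1 group were sequenced. The fusion line was the only group, so no untagged or untreated animals were compared, and a peak cannot be assigned to a tissue. The labels do not say if the replicates stem from different crosses or days.

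Introns are transcribed but spliced out, and in flies they often hold enhancers, the stretches of DNA that transcription factors bind to raise or lower transcription from a distance. Long first introns and the introns between alternative start sites are known for such elements, and many genes of the ecdysone response have both. E93 is known as a regulator that opens some enhancers and closes others as larval tissues give way to adult ones.

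The sequences below are the 101 bases around the summits of the 8 members with the highest signal, read from the RefSeq Release 6 (dm6) genome on the plus strand, with the gene that contains the summit. They show the A and T runs described further on. Capitals mark ATATTA or its reverse complement TAATAT, the 6-base word that differed most between summits and flanks over all members.
CG11050 (chr2L:6612667-6612767): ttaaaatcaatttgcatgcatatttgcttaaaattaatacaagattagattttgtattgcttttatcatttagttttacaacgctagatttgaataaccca
ush (chr2L:481012-481112): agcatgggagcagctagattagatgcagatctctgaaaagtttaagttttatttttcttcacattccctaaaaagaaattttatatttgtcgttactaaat
CG32772 (chrX:4910322-4910422): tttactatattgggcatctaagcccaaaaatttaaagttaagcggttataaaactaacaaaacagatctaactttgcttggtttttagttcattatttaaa
Lk6 (chr3R:11760974-11761074): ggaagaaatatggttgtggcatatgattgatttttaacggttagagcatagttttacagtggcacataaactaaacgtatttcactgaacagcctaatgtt
LPCAT (chrX:9579226-9579326): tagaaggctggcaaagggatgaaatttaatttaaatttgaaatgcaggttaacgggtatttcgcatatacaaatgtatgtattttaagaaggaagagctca
Eip78C (chr3L:21253863-21253963): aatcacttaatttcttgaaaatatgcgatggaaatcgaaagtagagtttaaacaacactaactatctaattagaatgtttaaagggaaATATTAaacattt
Zw (chrX:19668549-19668649): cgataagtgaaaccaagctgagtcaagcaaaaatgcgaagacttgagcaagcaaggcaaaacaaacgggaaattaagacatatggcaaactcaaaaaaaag
Tlk (chrX:3742154-3742254): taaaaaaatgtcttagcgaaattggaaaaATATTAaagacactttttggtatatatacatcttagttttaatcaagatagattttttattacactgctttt

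A second set holds the word AGATAAG or TGATAAG, or its reverse complement, within 50 bp of the summit. This word is the sequence that GATA transcription factors are known to bind, and is called the GATA word here. These are 5 of the stronger members with the word. The set was picked after the values had been seen and is shown because the word was more frequent at members than in their flanks. Capitals mark the GATA word.
CG45071,Ctps (chr3L:15107866-15107966): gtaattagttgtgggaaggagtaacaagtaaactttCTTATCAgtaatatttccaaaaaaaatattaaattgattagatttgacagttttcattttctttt
Spn (chr3L:2552659-2552759): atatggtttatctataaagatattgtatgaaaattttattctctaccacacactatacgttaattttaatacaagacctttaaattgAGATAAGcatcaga
Cdc7 (chrX:6656250-6656350): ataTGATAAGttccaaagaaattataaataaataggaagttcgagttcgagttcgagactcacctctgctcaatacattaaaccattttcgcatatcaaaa
CG7991 (chr3L:1692294-1692394): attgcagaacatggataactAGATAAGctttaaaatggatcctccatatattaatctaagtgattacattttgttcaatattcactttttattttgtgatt
msn (chr3L:2583382-2583482): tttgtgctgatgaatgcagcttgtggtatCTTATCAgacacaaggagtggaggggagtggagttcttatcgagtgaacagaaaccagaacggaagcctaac

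The signal of the members was like that of all reproducible peaks. The signal is a score that the peak caller gave each peak, so levels can be compared inside a list and not between lists. In the reproducible list, members ran from 89.85 to 1529 with a median of 128 and quartiles of 105.7 and 172.3, and the median over all reproducible peaks was 129.4. The median was 130.8 for the 1601 summits within 500 bp of a TSS and 129.2 for the 426 intronic summits farther than 5000 bp from a protein-coding TSS. Members made up 73 of the 300 peaks with the highest signal and 438 of the 1700 highest. The median member peak was 410 bp wide, and the widths ran from 102 to 549 bp. The caller's q values of the members ran from 0.000943 to 0.0355.

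Values on either side of the rule's limits are given as a description. The 52 intronic summits that lay 401 to 500 bp from a TSS, just outside the rule, had a median of 127.8, and the 56 members at 501 to 600 bp had a median of 136.3. At the far limit, the 37 members at 4501 to 5000 bp had a median of 147.9, and the 28 intronic peaks at 5001 to 5500 bp had a median of 127.9. The ranges of these groups overlapped.

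The member with the highest signal was also the peak with the highest signal of the whole set. It lay in CG11050 at chr2L:6612384-6612932, with a signal of 1529 in the reproducible list, 943.4 in the list of replicate 1 and 595.3 in the list of replicate 2, where it ranked 1 and 2. Its summit was in an intron of 140 bp, the shortest intron that held a member, 1030 bp downstream of the nearest TSS. The next lay at chr2L:480937-481262 in the first intron of ush, which encodes U-shaped, a zinc-finger partner of the GATA factor Pannier. It stood 1374 bp upstream of cbt, a gene for a zinc-finger transcription factor nested in ush, and ranked 3 in both replicates, with signals of 800.9 and 546. Both peaks were thus near the top of each replicate's own list.

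Several of the other strong members lay in genes with known enzymes or regulators. Lk6, a kinase that phosphorylates the translation factor eIF4E, held a member with a signal of 1034 that ranked 7 and 11 in the replicates. LPCAT, an acyltransferase of phospholipid synthesis, held one of 799.3 that ranked 22 and 20. Eip78C, a nuclear receptor gene induced by ecdysone, held one of 744.5 that ranked 28 and 22. These 3 summits lay in first introns. The nearest start to the summit in Eip78C was that of the nested gene CG43218, 4107 bp away. Zw, which encodes glucose-6-phosphate dehydrogenase, held a member of 660.6, and Tlk, the Tousled-like kinase, one of 644.3. CG32772 held one of 1051, and a member at 609.2 lay in chif, the fly relative of the replication kinase subunit Dbf4, where the gene Hyls1 overlaps it. Further down stood pum, which encodes the translational repressor Pumilio, at 608.8, norpA, the phospholipase C of phototransduction, at 512.4, crb, which encodes the apical polarity protein Crumbs, at 489.5, and for, a cGMP-dependent protein kinase gene, at 463.4. The rest of the 20 were CG12769 at 634.2, babos at 547.6, CG4496 at 541, CG9837 at 466.3 and a pair 209 bp apart in CG9663 at 501.7 and 441.7.

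Among these 20 strongest members, 18 had their nearest protein-coding TSS in a gene that contained them, 17 lay in a first intron and 10 lay downstream of that TSS. Another reproducible summit lay within 500 bp of the nearest TSS of 5. Over all 901 members the matching shares were 87.0%, 78.2%, 65.5% and 31.9%. In both replicates 19 of the 20 were among the 3401 leading peaks, and the lowest ranks of those found were 103 in replicate 1 and 155 in replicate 2. The exception was in Trl, which encodes the GAGA factor. Its member had a signal of 559.6 and ranked 44 in replicate 1, and its summit lay in no peak of replicate 2. The nearest summit of replicate 2 was 60 bp away, in a peak that ranked 49 and began past the member's summit.

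Members became sparser with distance from the TSS. Intron sequence that met the annotation part of the rule came to 22.1 Mb, 16.5% of the 6 arms, and held 40.8 members per Mb (exact Poisson 95% interval 38.2 to 43.6). Between 501 and 1000 bp the density was 61.4 members per Mb (53.8 to 69.7, 237 members). It was 37.4 (30.2 to 45.7) at 2001 to 2500 bp and 23.7 (16.7 to 32.6, 37 members) at 4501 to 5000 bp. The first of these bins lay above the last beyond counting error. The median member was 1678 bp from its nearest protein-coding TSS, with quartiles of 977 and 2719 bp. Median signal showed no such order, at 128.1 in the nearest bin and 120.5 to 147.9 in the others.

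The decline ran on past the limit of the rule without a gap. Intronic summits stood at 22.2 per Mb (18.7 to 26.2) at 5001 to 7500 bp, 20.5 at 7501 to 10000 bp, 14.9 at 10001 to 20000 bp and 5.54 (4.24 to 7.12) beyond. Taken over all introns farther than 5000 bp, which make up 30.8 Mb, the density was 13.8 per Mb (12.6 to 15.2). The ratio of the members' density to that was 2.95 (exact 95% interval 2.63 to 3.32). With the leading peaks of 1 replicate alone in place of the reproducible list it was 2.81 to 3.08.

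**Figure D1:**
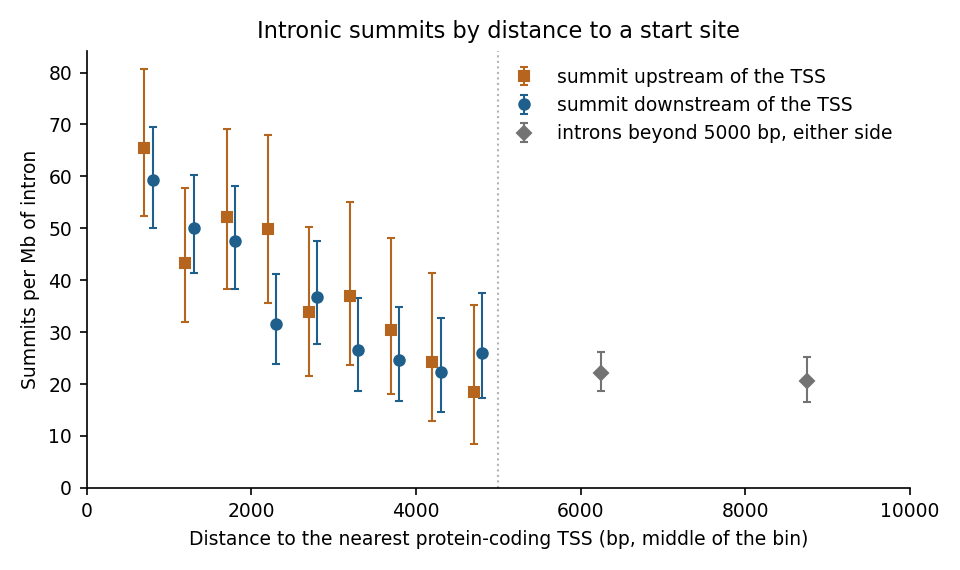
Summits per Mb of intron (vertical axis) against distance to the nearest protein-coding TSS in bp (horizontal axis), for members upstream (squares) and downstream (circles) of that TSS and for intronic summits beyond 5000 bp (diamonds). Bars are exact Poisson 95% intervals. Both sides fall from about the same height, 65.4 upstream and 59.3 downstream at 501 to 1000 bp, to 18.5 and 26.0 at 4501 to 5000 bp, and the introns beyond stand at 22.2 and 20.5.

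Members lay on both sides of start sites in the proportion the introns offered. Of the 901, 590 (65.5%, Wilson interval 62.3 to 68.5) were downstream of the nearest protein-coding TSS, against 67.7% of the qualifying sequence. In each distance bin the intervals of the upstream and downstream densities overlapped. Farther than 5000 bp, 72.8% of intronic summits were downstream, and the share in members minus that share was -7.29 points (Newcombe 95% interval -12.4 to -1.93). The downstream share of the farther sequence itself is not given here, so the difference is between raw shares.

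Most members lay in the gene whose start was nearest. For 784 (87.0%, 84.7 to 89.1) the nearest protein-coding TSS belonged to a gene that contained the summit, against 74.6% of the qualifying sequence, and the density was 47.6 per Mb there against 20.9 where the nearest TSS was another gene's. Of these 784, 556 were downstream of the TSS and 228 were upstream of an internal start of their own gene. The nearest TSS was the gene's outermost 5′ start in 285 (36.4%), and 164 lay in genes with a single annotated TSS. Internal starts, meaning any start past the outermost one however close to it, were therefore the nearest ones for most own-gene members. The matching share of the qualifying sequence is not given here, so this raw share is not set against what the annotation offered. Of the 117 others, 78 were nearest to a gene nested in the host, 18 to one that overlaps it, 14 to a neighbour outside it and 7 had no protein-coding host.

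First introns held members at a higher density than later ones. In any annotated transcript, 705 members (78.2%, 75.4 to 80.8) were in a first intron, against 58.5% of the qualifying sequence. That gave 54.7 members per Mb (50.7 to 58.8) in first introns and 21.4 (18.5 to 24.6) in others. The gap held in each distance range, with 75 against 27.8 at 501 to 1000 bp, 58.4 against 24.6 at 1001 to 2500 bp and 38.8 against 17.5 at 2501 to 5000 bp, an alternative chosen after seeing the data. The count depends on which transcripts are read. With the longest transcript of each gene alone, 462 members (51.3%) were in its first intron against 39.8% of the sequence, and with transcripts from the nearest TSS alone the share was 52.2%. Among intronic summits farther than 5000 bp, 53.8% were in a first intron, 24.5 points fewer (19.0 to 29.9). The share of first introns in that farther sequence is not given here, so this gap is not set against what the sequence offered. Introns ahead of the start codon, which splice the 5′ untranslated part of a message, held 503 members (55.8%) at 49.7 per Mb, against 33.3 per Mb elsewhere. The 894 members in an intron of a protein-coding gene sat in introns with a median length of 6657 bp and quartiles of 2798 and 13310 bp.

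Members were several times denser beside start sites that had an E93 summit of their own. For 287 members (31.9%, 28.9 to 35.0) another reproducible summit lay within 500 bp of the nearest protein-coding TSS, while such sites are nearest to 10.7% of the qualifying sequence. The density was 122 members per Mb (108 to 137) beside them and 31.1 (28.7 to 33.7) beside TSSs without a summit, a ratio of 3.92 (3.4 to 4.52). The 2 densities stood apart in every distance range, at 134 and 52.2 at 501 to 1000 bp, 148 and 32.5 at 1001 to 2500 bp, and 90.8 and 21.4 at 2501 to 5000 bp. With members from 1 replicate and TSS summits from the other, another alternative chosen after seeing the data, the ratio was 3.77 and 3.72. The share fell to 18.0% among the 1700 strongest peaks, where fewer TSSs carry a summit, and the ratio was then 3.66 (2.83 to 4.68).

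The raw share was close among intronic summits beyond the limit of the rule. No density or share of sequence is given for those introns, so their enrichment is not compared. Of the 426 farther intronic summits, 27.5% had a summit at their nearest TSS, 4.39 points fewer, a difference whose interval, members minus farther summits, ran from -0.935 to 9.48 points. Read by gene, 269 of 1405 genes with a promoter summit and qualifying intron held a member (19.1%, 17.2 to 21.3), against 342 of 7696 without one (4.44%, 4.01 to 4.93). The former genes had more qualifying intron, with a median of 875 bp against 415 bp, and its part in the difference was not tested. The median gap from a member to the nearest other reproducible summit, of any class, was 2255 bp. Such a summit lay within 1000 bp of 209 members (23.2%) and of 16.9% of farther intronic summits, a difference of 6.3 points (1.63 to 10.6). Farther summits cannot have a summit at a protein-coding TSS within 1000 bp, while members can. The rule itself thus shapes this difference, and it is no measure of clustering. The intervals of 69 members (7.66%) overlapped another entry of the list, so neighbouring summits are not always separate sites.

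**Figure D2:**
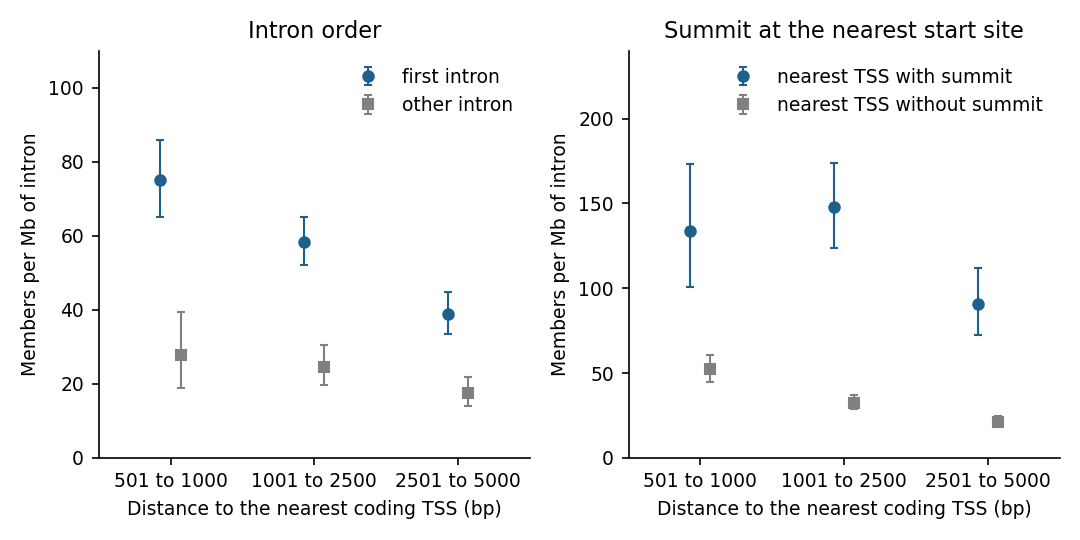
Members per Mb of intron (vertical axes) in 3 ranges of distance to the nearest protein-coding TSS (horizontal axes), split by intron order (left) and by whether that TSS has another reproducible summit within 500 bp (right). Bars are exact Poisson 95% intervals. First introns stand above other introns in each range (75 against 27.8 in the nearest), and introns beside TSSs with a summit stand above the rest (134 against 52.2).

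Members were among the leading peaks of both replicates about as often as all reproducible peaks. Leading is a cut by rank, and a member below it can still lie in a peak of that replicate's full list. The summit lay in one of the 3401 leading peaks of both replicates for 576 members (63.9%, 60.7 to 67.0). The share was 64.2% over all reproducible peaks, so members repeated about as often as the rest. The difference from promoter summits was -0.906 points, with an interval from -4.84 to 2.97. Because the reproducible list was made from both replicates, these shares are not an independent check. Of the 300 members with the highest signal, 292 (97.3%) were leading in both. Of the next 300 it was 231 (77.0%), and of the 301 weakest, with signals of 89.85 to 112.5, it was 53 (17.6%).

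Of all 901 members, 139 were leading in replicate 1 alone, 162 in replicate 2 alone and 24 in neither. The full lists hold 30000 entries each, background included, and 885 members (98.2%) lay in a peak of both. Replicate 1 gave the members it covered signals of 19.14 to 943.4 with a median of 70.84, and replicate 2 gave 15.41 to 595.3 with a median of 63.21, each on the scale of its own list. Across these 885 sites, which share the caller and the control alignment, Spearman's rank correlation between the replicates was 0.457 and Pearson's r of log2 signal was 0.601, given as a description. A replicate's peak was shared by 24 members in replicate 1 and 30 in replicate 2, so a rank given for a member can belong to a stronger neighbour.

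**Figure D3:**
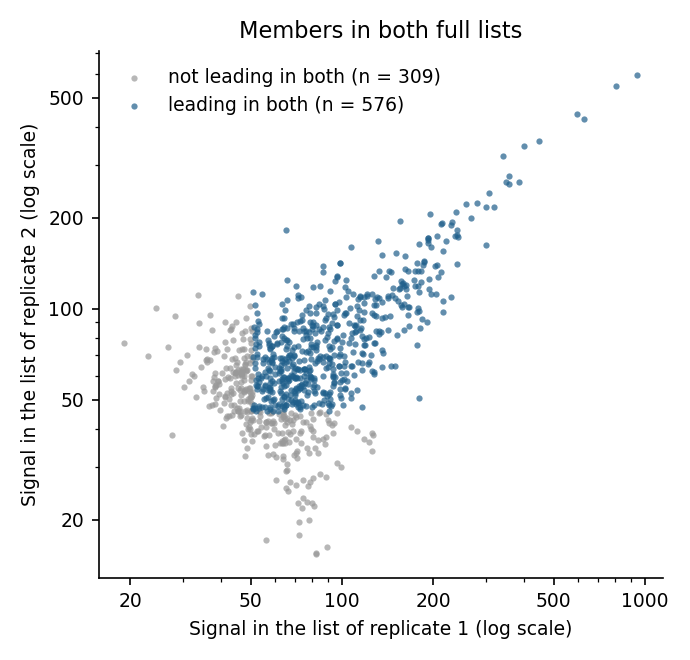
Signal of the 885 members found in both full lists, in replicate 1 (horizontal axis, log scale) and replicate 2 (vertical axis, log scale), each in the units of its own list. The 576 members leading in both (dark) run along the diagonal up to 943.4 and 595.3, and the other 309 (grey) lie where 1 or both signals are low.

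The members lay in 611 protein-coding genes. Of these, 435 held 1 member, 99 held 2 and 77 held 3 or more. Tlk held the most, 11, in 34603 bp of qualifying intron across a span of 69764 bp with 8 start sites. Its members ran from 95.63 to 644.3 with a median of 123.3, and 8 of them were leading in both replicates. The strongest lay 2307 bp downstream of an internal start, and the second, at 311, 1882 bp upstream of another.

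The next genes held 7 to 9 members. shn, whose zinc-finger product Schnurri acts in Dpp signalling, held 9 members from 91.1 to 373.4, of which 6 were leading in both. CHES-1-like, a forkhead factor gene, held 8 with a median of 205, the highest median of these 10 genes, in 14663 bp of qualifying intron. Its members at 270.7 and 110.7 shared a replicate 2 peak. Eip75B, the gene of the ecdysone-induced nuclear receptor E75, also held 8 members, from 93.66 to 231.1. Those at 231.1 and 151.5 lay in the same peak of each replicate, at ranks 877 and 223. Beside its members stood 4 summits near its start sites and 8 farther intronic ones. The strongest summit in Eip75B was one of the farther ones, at 733.8. vri, which encodes the bZIP repressor Vrille, held 7 members from 90.58 to 250 in 14442 bp, beside 3 summits near its starts.

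The remaining genes of the 10 differed in strength and in whose start was nearest. Svil, the fly supervillin gene, held 8 weak members, from 91.39 to 117.9, and 1 of them was leading in both replicates. Its 69549 bp of qualifying intron is the largest of the 10. CG1677 held 6 members up to 338.4, all leading in both, though the weakest, at 90.29, shared its replicate 2 peak with the strongest. The nearest starts in CG1677 were those of the nested genes Dok, CBP, unc-119 and brk, the last a repressor of Dpp targets. mnb, the minibrain kinase gene, held 6 from 99.12 to 294, and the nearest start of the strongest was that of CG12985. atos held 5 from 118.9 to 224.2, all leading in both.

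**Figure D4:**
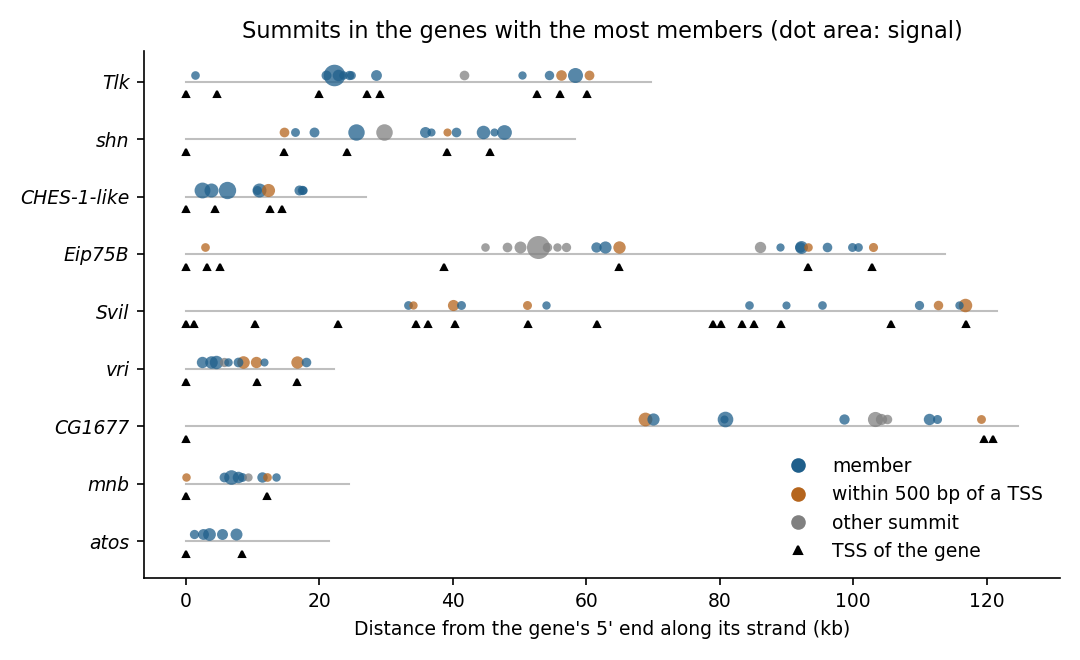
Summits along 9 of the 10 genes with the most members, placed by distance from the gene's 5′ end in kb (horizontal axis), with dot area in proportion to signal. Triangles are start sites of the gene itself, and starts of nested genes are not drawn. Tlk carries 11 members around several internal starts, the members of Svil are small (at most 117.9), and Eip75B has 8 members beside 8 farther intronic summits.

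Members lay in hormone response genes, EcR and Eip93F among them. Over all 13945 protein-coding genes, 4.38% contained a member, and over the 9101 with qualifying intron 6.71% did. Of 31 ecdysone response genes, 12 held one (38.7%, Wilson interval 23.7 to 56.2), with 32 members at 118 per Mb of their qualifying intron against 38.8 per Mb summed over all protein-coding genes. After Eip78C the strongest were in tai, whose product is a coactivator of the ecdysone receptor, with 4 members up to 341.2, in vri, and in ImpL2, which encodes a secreted binder of insulin-like peptides, with 1 at 248.7. EcR itself held 1 weak member at 98.34, 504 bp upstream of a start and just past the limit of the rule. That member ranked 5051 and 1060 in the replicates, and EcR also held 2 summits near its start sites and 6 farther intronic ones. Eip93F, the gene that was tagged, held 4 members from 120.3 to 200.4, all leading in both replicates, the strongest 2330 bp upstream of an internal start.

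Other developmental regulators held members as follows. Of 17 juvenile hormone and timing genes 5 did, with foxo, the insulin-responsive forkhead factor, at 228.5, and gce, a juvenile hormone receptor gene, at 128. Of 21 nuclear receptor genes 6 did, among them Hr4 at 166.8 and Hnf4, a regulator of lipid use, with 3 members up to 164.4. Of 6 genes for GATA factors and their partner 2 did, ush and GATAd, the latter at 104.3. The lists overlap, since Eip75B, Eip78C, Hr4 and EcR stand in both the ecdysone and the receptor list, and foxo and Eip93F in 2 lists each.

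Members also lay in signalling genes. In the Dpp pathway 5 of 15 genes held one, with 13 members at 122 per Mb (64.8 to 208), 9 of them in shn. After shn came the receptor genes wit at 294.4 and tkv at 198.3 and sog, an extracellular antagonist of Dpp, at 177.7. In wit and tkv the nearest start was that of a nested gene. Of the genes named next, this also held for dachs and for the strongest members of arr and mam. The nearest start to the member in fz was that of a neighbour outside it, CG13481. In the Wingless pathway 5 of 19 did, with the receptor gene fz at 302.3, the kinase gene sgg at 205.2, the coreceptor gene arr at 164.6 and the antagonist gene nkd at 154.5. In the Egfr and Ras pathway 4 of 21 did, the receptor gene Egfr at 311.3, the repressor gene aop at 226.2, the kinase gene Raf at 201.7 and the ligand gene spi at 115.6. In the Notch pathway 2 of 17 did, neur, a ubiquitin ligase for Notch ligands, at 320.7 and the coactivator gene mam with 5 members up to 277.4. In the Hippo pathway 2 of 15 did, dachs at 113.5 and kibra at 97.66, both low. Each of these shares rests on few genes, so their intervals are wide, from 3.74 to 37.9% for the Hippo pathway. Per Mb of qualifying intron, the Wingless list held 102 members (52.9 to 179) and the Egfr and Ras list 104 (53.8 to 182). The Notch list held 71.4 (26.2 to 155) and the Hippo list 33.4 (4.04 to 121). The intervals of these last lists include the 38.8 per Mb over all protein-coding genes.

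Genes for growth, death and chromatin were mixed. The nearest start to the strongest member was another gene's in Sesn, puc and Atg1 (CG18128, CG7878 and CG42709). Of 20 insulin and TOR genes 6 held a member, with 3 in REPTOR, a transcription factor gene downstream of TOR, up to 185.4, 1 in sima, the fly HIF-1 alpha gene, at 154.7 and 3 in Sesn up to 125.1. Of 18 cell death genes 2 did, puc, which encodes a phosphatase of the JNK pathway, at 230.9 and Diap1, the inhibitor of apoptosis, with 4 from 97.02 to 226.5. Of 21 autophagy genes 2 did, Atg1, the initiating kinase, with 2 up to 124.5 and Atg17, a subunit of its complex, at 97.55. Of 27 Polycomb and Trithorax genes 6 did, with 14 members at 168 per Mb (91.7 to 281), and after Trl came trx at 271.1, ph-p at 222 and kis at 185.4. Of 27 actin and adhesion genes 9 did, led by ena, which speeds actin filament growth, at 207.2 and tsr, the cofilin gene, at 207.1. Next came sn, the fascin gene, at 164.7 and Msp300, a giant nuclear anchor protein gene, at 153.1. Per Mb of qualifying intron, the insulin and TOR list held 143 members (68.5 to 263) and the cell death list 191 (70.1 to 416). The autophagy list held 124 (25.6 to 362) and the actin and adhesion list 66.5 (31.9 to 122). The intervals of these last lists include the 38.8 per Mb over all protein-coding genes.

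None of the 88 cytoplasmic ribosomal protein genes and none of the 180 chemosensory receptor genes held a member. Both groups offered little room, 0.00526 Mb of qualifying intron in 25 genes and 0.0606 Mb in 134. The density that a count of 0 allows was up to 60.9 members per Mb for the chemosensory genes, above the 38.8 per Mb over all genes, so a lower density was not detectable there. The lists were chosen with earlier results of these data known, and no test of a list was made.

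Summits of members were richer in A and T than the sequence around them. GC content averaged 36.9% within 50 bp of the summit and 41.6% in windows of the same size 500 bp to either side. The summit window had the higher GC content in 318 members (35.3%). At promoter summits the step was wider, from 44.1% in the flanks to 35.4% at the summit. Farther intronic summits were close to members, at 41.3% in the flanks and 36.5% at the summit. Over all reproducible peaks the values were 42.7% and 36.0%, so the step was not particular to members. Median GC content was 32.2% among the 300 strongest members, 37.6% in the next 300 and 38.6% in the 301 weakest.

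The GATA word was more frequent at members than in their flanks. It lay within 50 bp of the summit in 83 members (9.21%, 7.49 to 11.3), against 3.44% of flank windows and 6.73% of all reproducible peaks. The difference from the flanks was 5.77 points (Newcombe 95% interval 3.81 to 7.97). That interval treats summit and flank windows as independent, though both flanks come from the same members. Of windows of the same length over all qualifying intron, 3.25% held the word. At promoter summits the share was 5.18%, 4.03 points lower than in members (1.93 to 6.32), and at intergenic summits it was 4.63%, 4.58 points lower (1.41 to 7.27). At farther intronic summits it was 7.75%, and the difference, members minus these, was 1.47 points (-1.93 to 4.47). Windows reaching 25 bp and 100 bp from the summit gave differences of 2.77 and 9.38 points from the flanks.

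The 83 members with the GATA word had a median signal of 116.6, and the 818 without it had one of 129. Its share was 7.0% among the 300 strongest (4.62 to 10.5), 8.0% in the next 300 and 12.6% in the 301 weakest (9.34 to 16.9), with overlapping intervals at the ends. Their GC content was higher, with a median of 40.6% against 35.6%. The nearest match was a median of 23 bp from the summit, and within 20 bp in 37 of the 83. The share leading in both replicates was 60.2%, against 64.3% of the rest. CG12769, at 634.2, held the one member among the 20 strongest with the word, and CG45071 at 281 and Spn at 278.9, whose sequences are shown above, came after it.

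**Figure D5:**
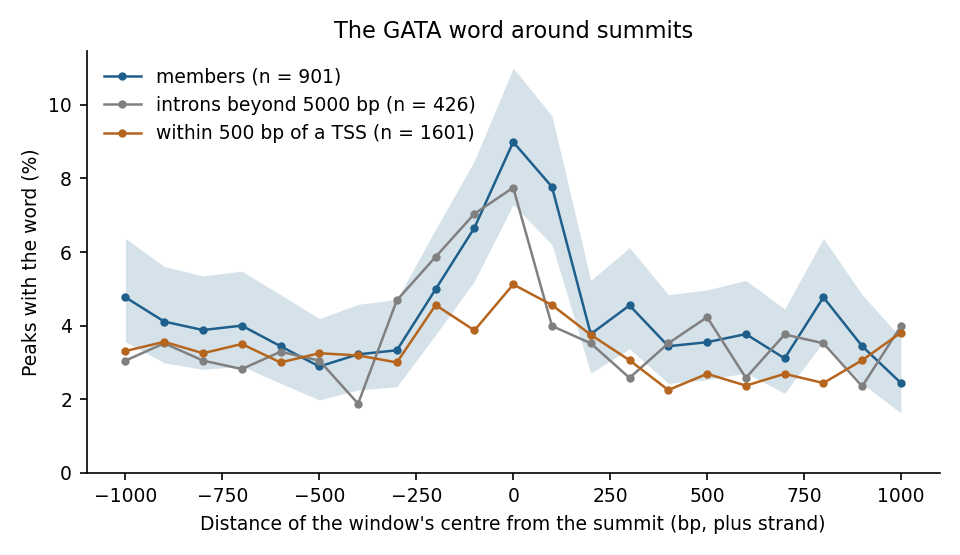
Share of peaks with the GATA word on either strand (vertical axis, %) in windows of 99 bp against distance of the window's centre from the summit in bp (horizontal axis), for members, farther intronic summits and promoter summits. The band is the Wilson 95% interval of the members. The share peaks at the summit at 8.99% in members, 7.75% in farther introns and 5.12% at promoters, each slightly different from the value over 101 bp.

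The GATA word was 1 of 18 words chosen with earlier results of these data known. The others showed smaller differences. CATATG was at 4.55% of summits and 2.94% of flank windows, and TAATTA at 8.1% and 6.66%. GAGAGAG, the word of the GAGA factor, was at 2.0% and 3.11%, and the half-site AAGGTCA of nuclear receptors at 0.333% and 0.943%. TATCGATA, the word of the boundary and promoter factors DREF and BEAF-32, was at 0 of 901 member summits, with a Wilson upper limit of 0.425%. It was rare in their flanks too, at 0.166% of windows, and stood at 1.31% of promoter summits. A match describes the letters in the window and no more.

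Of the 2080 words of 6 letters, counted with their reverse complements, those with the largest differences were nearly all made of A and T. ATATTA was at 19.2% of member summits and 8.21% of flank windows, AATAAT at 23.3% and 13.0%, and ATTTTA at 23.8% and 13.7%. The exception among the first 10 was CTTATC, whose reverse complement GATAAG is the core of the GATA word, at 13.4% and 5.11%. Its difference was 8.32 points in members, 4.81 in farther introns and 3.37 at promoters, while that of ATATTA was 11.0, 4.93 and 14.2 points. The 2 words ran opposite ways with signal, though the intervals overlapped. ATATTA was at 24.3% of the 300 strongest members (19.8 to 29.5) and 15.9% of the 301 weakest (12.2 to 20.5). CTTATC was at 11.3% (8.22 to 15.4) and 16.9% (13.1 to 21.6). The 9 words of A and T overlap one another and move with GC content, and they are not separate observations.

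Members were found at similar densities on the large arms. These were 42.2 members per Mb of qualifying intron on X, 41.2 on 2L, 42.3 on 2R, 37.0 on 3L and 43.7 on 3R, with overlapping Poisson intervals. The small chromosome 4 held 1 member in 0.283 Mb, or 3.54 per Mb (0.0896 to 19.7), below the large arms beyond counting error. Down the pooled list of 30000 entries, the share of entries in introns near a start site stayed between 24.3% and 27.9% in every range of rank. That of promoter summits fell from 54.0% in the first 300 to 17.3% in the last 10000, and that of farther introns rose from 9.67% to 22.0%.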

How the data were processed

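The authors' deposited narrowPeak lists were used as they stood, and per the notes deposited with them each was called against a control alignment and the reproducible list was made by the irreproducible discovery rate. The signal per peak is the authors' own, and so is the −log10 (q) value; which aligner and caller were run is not given in the sources used here. The lists hold no counts, so depth is unknown and intervals cover counting error only. The dm3 lists were not used.

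Summits were classed by the dm6 annotation of Ensembl release 115, transposable elements left out, with Python 3.11.15, numpy 2.4.6, pandas 2.3.3 and scipy 1.17.1, and words were read from the RefSeq genome of the same build. The counting was checked on simulated data. Densities carry exact Poisson intervals, shares Wilson and differences Newcombe intervals, at 95%. Leading peaks are the 3401 highest of a replicate's list. The genes named were those with the 20 strongest members, the 10 with the most members, of which 1 is not reported here, and up to 4 per list; EcR and the members shown for the GATA word were named after their values were seen. List symbols were matched through RefSeq synonyms and a few aliases written by hand. Members, gene lists and the list of words, the GATA word among them, were chosen with earlier results of these data known. Alternatives were other distances, annotations, windows and thresholds, and single replicates.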

Additional observations from a re-analysis of the deposited data

How the results depend on the processing

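Of 42 alternative settings, 12 moved the value and 0 reversed it. A count was called moved past 1.5 times its value, and other values outside their 95% interval. The count of members was 634 to 1132 under other distances and 438 among the 1700 strongest peaks, by construction. The ratio of densities was 2.6 with 1000 bp around each TSS left out. The share nearest to a containing gene was 81.8% with the TSSs of any gene. The share in first introns was 51.3% with the longest transcripts and 52.2% with transcripts from the nearest TSS. The share leading in both replicates was 98.2% with the full lists and 93.8% among the 1700 strongest. The share beside a TSS with a summit was 23.1% within 250 bp, 39.7% within 1000 bp and 18.0% among the 1700 strongest. The GATA difference was 2.77 points at 25 bp and 9.38 at 100 bp. With 1 replicate's leading peaks alone, the count was 869 to 929, first introns 77.7 to 79.1%, a TSS with a summit 29.2 to 30.1% and the GATA difference 4.49 to 5.71 points. No paired analysis was possible because the labels give 1 group. Unknown depth limits what weak members can show.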
